A study of Danio rerio with 18 samples.

Results

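Kinesins are motor proteins that hydrolyse ATP to move along microtubules or to take microtubules apart at their ends. One set of them builds the mitotic spindle, moves chromosomes and completes cytokinesis. Another set carries vesicles, organelles and the building blocks of cilia through the cytoplasm. In cycling cells the mRNAs of most mitotic kinesins accumulate in G2 and mitosis and are low outside the cycle, whereas transport kinesins are not confined to dividing cells. In zebrafish, the lateral line primordium is a small migrating epithelium whose cells divide as it travels down the trunk and lays down sensory organs, and FGF signalling is among the pathways that pattern it.

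The kinesin genes described here are all those on the array whose single annotated symbol begins with kif followed by a digit, whatever the case of the letters. The rule found 34 of 19260 genes with a single symbol, and genes with more than 1 probe set are represented by the brightest, by its mean over all 18 arrays. By what their vertebrate relatives are known to do, 10 were grouped as mitotic kinesins, 16 as transport kinesins and 8 as other kinesins. The mitotic genes were kif2c, kif4, kif11, kif14, kif15, kif18a, kif20a, kif20bb, kif22 and kif23. The transport genes were KIF13A, kif13ba, kif13bb, kif17, kif1aa, kif1b, kif1ca, kif3a, kif3b, kif3ca, kif3cb, kif5aa, kif5ab, kif5ba, kif5bb and kif5c. The others were kif2a, kif6, kif7, KIF9, kif19, kif21b, kif25 and kif26aa. A further probe set that carries a kinesin symbol beside a second gene was not used.

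RNA of samples labelled as lateral line primordium, from embryos younger than 3 days, was measured in 3 groups of 6 arrays. Control embryos were cldnb:lynGFP, cxcr4b:nls-tdTomato transgenics in 10 µM RU486 and 0.1% DMSO. The SU5402 group shared this genotype, RU486 and DMSO, and was given 1 µM SU5402, an inhibitor of FGF receptor 1, in addition. Embryos of the FGF overexpression group also had both reporters, RU486 and DMSO, and carried cxcr4b:LexPR and lexOP:Fgf3-GFP besides. LexPR is a transcription factor that RU486 activates, so Fgf3 was made where the cxcr4b promoter is active, and the control embryos carried neither of the added transgenes. The samples are labelled as biological replicates, but the labels do not say how many embryos each held. The p-values therefore set group differences against the spread between these samples, and not between single embryos.

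Signals are on a log2 scale, where a difference of 1 is a factor of 2. Array medians lay between 5.89 and 5.99. The FGF target etv4 had a mean of 9.26 in control, 5.73 under SU5402 and 10.98 under FGF overexpression. The ligand gene fgf3 was at 7.12, 9.11 and 12.38 in the same order. All 13 measured primordium markers, cldnb (11.90 in control) and cxcr4b (10.65) among them, exceeded the median probe set in each group. By the limma test below, 2 of the 13 fell and 3 rose under SU5402, against 8.13% and 6.57% of all genes. Under FGF overexpression 4 fell and none rose, against 2.48% and 3.41% of all genes. Markers of skeletal muscle were high as well, with array means of 10.58 to 11.38 in control, against 10.20 to 10.76 for the primordium markers. In such bulk samples, fewer cells of a type and less RNA per cell cannot be told apart. Of the 34 kinesins, 28 had a mean above the median of all probe sets, and the other 6, kif17, kif1aa, kif3cb, kif5c, kif25 and KIF9, were at or below it. In control that median was 5.91, and the median of the genes with a single symbol was higher, at 6.85. Kinesins below the latter in control included kif14 (6.75) and kif21b (6.43). The files give no detection calls.

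After SU5402 every measured kinesin grouped here as mitotic was lower than in control. All 10 fell, by 1.46-fold for kif22 to 1.97-fold for kif2c, with a median log2 change of -0.73. None of the 16 transport kinesins passed the test, with a median of -0.01. Unlike the mitotic genes, kif17, kif1aa, kif3cb and kif5c among them had levels at or below the median of all probe sets. The kinesins were sorted into classes with earlier results of these data known. Grouped with the other kinesins, kif2a, whose product also acts at spindle poles, did not pass (-0.19, limma adjusted p = 0.0867). The test was limma's moderated test over all 75212 probe sets with Benjamini-Hochberg adjustment and a threshold of 0.05. By that rule 8.13% of all 19260 genes were lower under SU5402, 6.57% were higher and 14.7% were called in either direction, and the median log2 change of all genes was 0.01. The adjusted p-values of the 10 mitotic genes ran from 1.56e-06 to 0.00218.

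**Figure D1:**
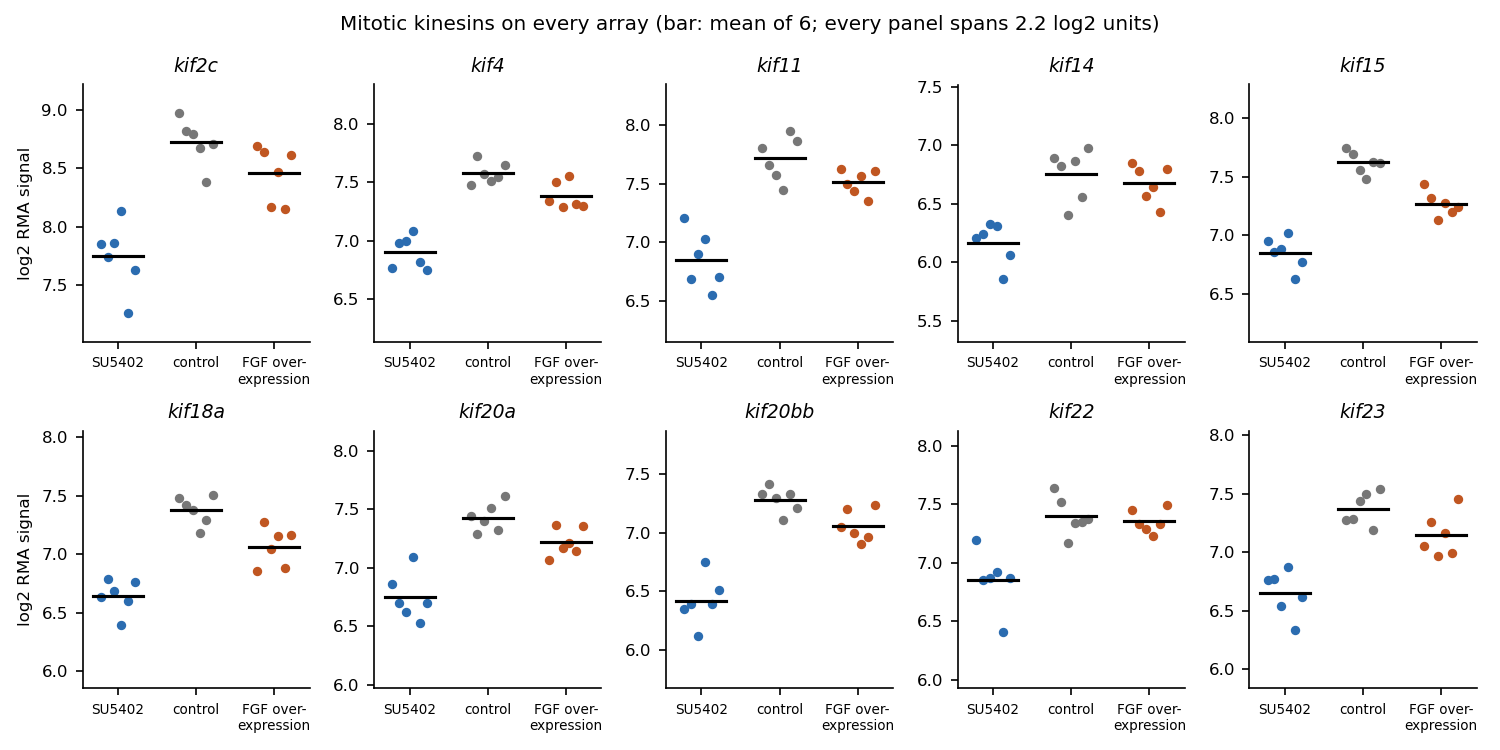
Log2 RMA signal (vertical axis) of the 10 mitotic kinesins, 1 panel per gene, in 6 SU5402, 6 control and 6 FGF overexpression arrays; points are arrays, black bars are group means, and each panel spans 2.2 log2 units. For every gene but kif22 the 6 SU5402 points lie below the 6 control points. Each FGF overexpression mean lies between the SU5402 and control means, and for kif15 all 6 FGF overexpression points lie below the control points.

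The motors that set up the spindle fell. The gene kif11 encodes the motor that slides antiparallel microtubules apart to make the spindle bipolar. Its signal in the 6 control arrays was 7.45 at the lowest, 7.73 at the median and 7.95 at the highest, against 6.55, 6.80 and 7.21 under SU5402. No SU5402 array reached the lowest control array, and the log2 change was -0.87 (SE 0.11, adjusted p = 2.46e-05 by limma, n = 6 per group). The gene kif15 encodes a motor that helps to keep the spindle poles apart. It read 7.48, 7.62 and 7.75 in control as lowest, median and highest, and 6.63, 6.87 and 7.02 under SU5402. The groups did not overlap, and the log2 change of -0.77 (SE 0.08, limma adjusted p = 1.56e-06) had the smallest p of the 34 genes in this comparison.

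Motors that act on chromosomes and their attachment to the spindle were lower too. The depolymerase encoded by kif2c removes faulty attachments of microtubules to kinetochores. It had the largest fall among the kinesins, -0.98 (SE 0.14, limma adjusted p = 7.98e-05), from a control range of 8.38 to 8.97 to a range of 7.26 to 8.13. A second probe set of kif2c fell as well (-0.82, SE 0.09, limma adjusted p = 3.44e-06). The product of kif18a damps the movement of chromosomes at the spindle equator. Its control arrays read 7.18, 7.40 and 7.51 as lowest, median and highest, and its SU5402 arrays 6.40, 6.66 and 6.79. It fell by 0.73 on the log2 scale (SE 0.09, limma adjusted p = 1.94e-05). The chromosome-bound motor gene kif4 read 7.48, 7.56 and 7.72 in control against 6.75, 6.90 and 7.08 under SU5402. That was a fall of 0.68 on the log2 scale (SE 0.08, limma adjusted p = 7.77e-06). The smallest fall of the class was that of kif22, whose product pushes chromosome arms away from the poles (-0.55, SE 0.11, limma adjusted p = 0.00218). It was also the only mitotic kinesin with overlapping groups, since the highest SU5402 array (7.19) lay just above the lowest control array (7.17).

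The motors of cytokinesis fell by similar amounts. The product of kif20a brings the chromosomal passenger complex to the central spindle. Its control values were 7.29, 7.42 and 7.61 as lowest, median and highest, and its SU5402 values 6.53, 6.70 and 7.09. It fell by 0.68 on the log2 scale (SE 0.09, limma adjusted p = 6.13e-05). The gene kif20bb, whose mammalian relative takes part in the last steps of cytokinesis, read 7.11, 7.31 and 7.42 in control and 6.12, 6.39 and 6.75 under SU5402. Its log2 change was -0.87 (SE 0.10, limma adjusted p = 4.49e-06). For both genes all SU5402 arrays were below all control arrays. The gene kif23, which encodes the motor subunit of the centralspindlin complex, fell by 0.72 on the log2 scale (SE 0.10, limma adjusted p = 0.000105). The gene kif14, needed for the final stages of cytokinesis in mammalian cells, fell by 0.59 (SE 0.11, limma adjusted p = 0.00162).

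The 95% intervals of the 10 mitotic log2 changes ran from -1.27 at the lowest bound to -0.32 at the highest, and those of kif2c (-1.27 to -0.69) and kif22 (-0.77 to -0.32) overlapped. In 9 of the 10 genes all 6 SU5402 arrays lay below all 6 control arrays, a pattern seen in 4.98% of all genes. The mean over the 10 mitotic genes ran from 7.45 to 7.61 on the control arrays and from 6.54 to 6.96 on the SU5402 arrays. SU5402 replicate 5 had the lowest of these means, with 6.74 the next, and gave the lowest SU5402 value of 7 of the 10 genes. Without that array all 10 genes still passed.

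**Figure D2:**
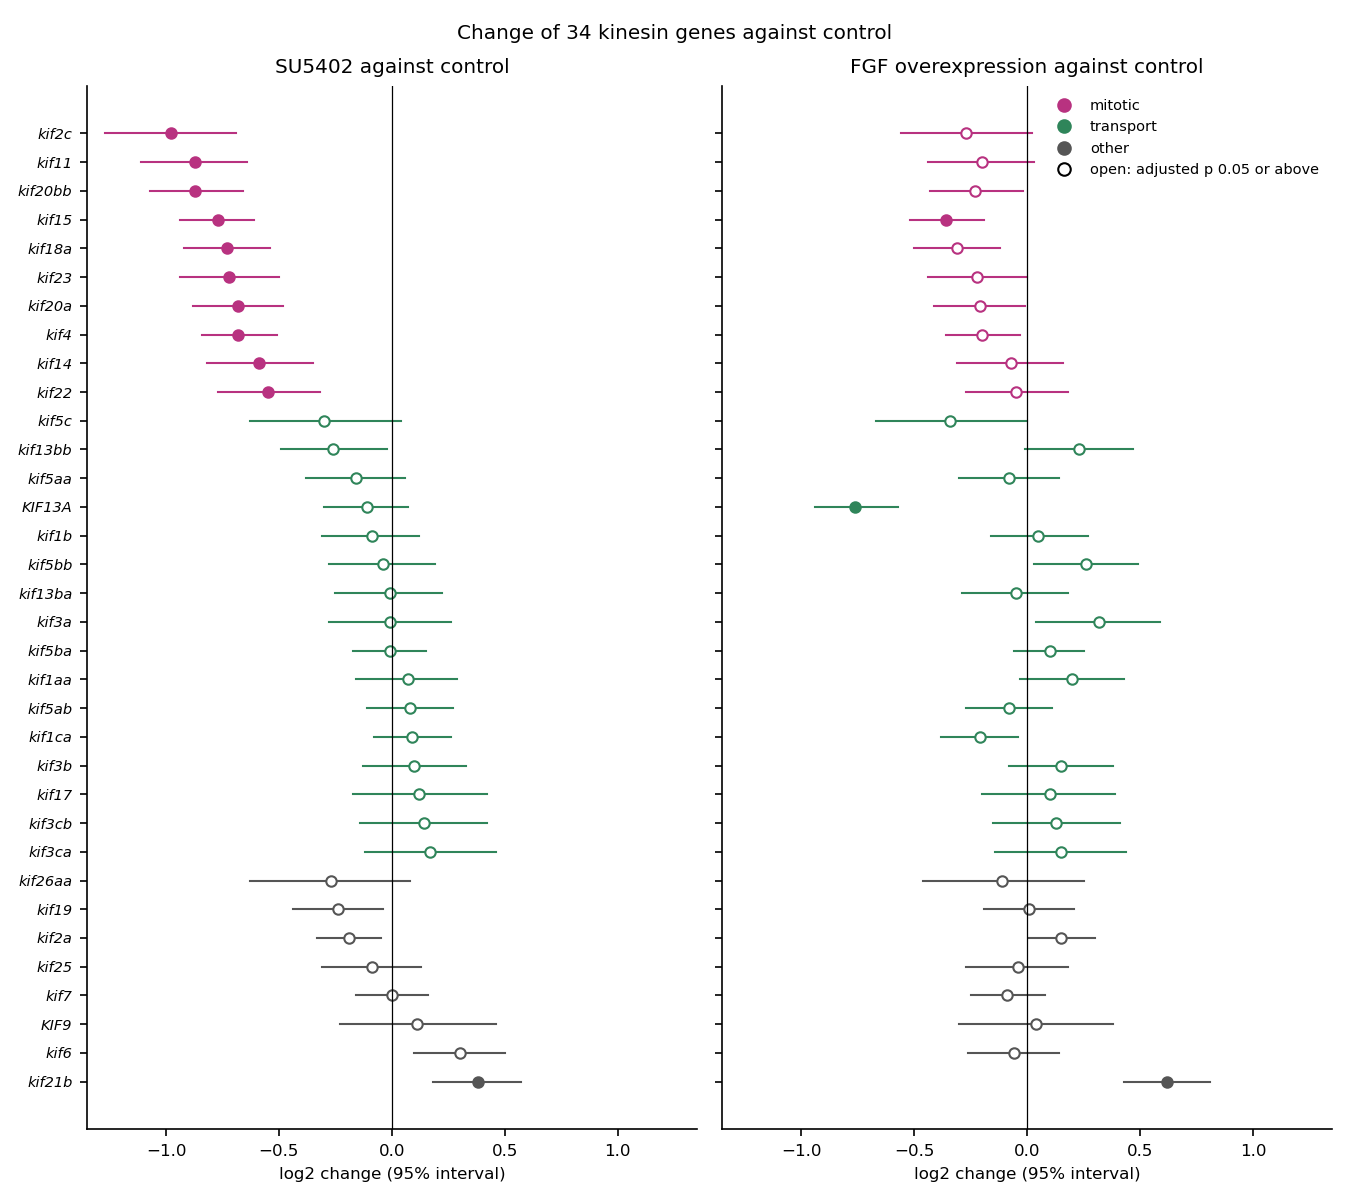
Log2 change against control (horizontal axis) with its 95% interval for the 34 kinesin genes, under SU5402 (left) and FGF overexpression (right), coloured by class and ordered within a class by the SU5402 change; filled points passed the limma test. On the left the 10 mitotic genes lie between -0.98 and -0.55, and of the remaining 24 genes kif21b alone is filled; on the right kif15, KIF13A and kif21b are filled.

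Transport kinesins gave no call under SU5402. Their log2 changes ran from -0.30 to 0.17, and 1 of the 16 had an unadjusted p below 0.05, as did 5297 of all 19260 genes. The gene kif5ba encodes a conventional kinesin heavy chain of the broadly expressed type. Its mean was 9.24 in control (SD 0.09, n = 6) and 9.23 under SU5402 (SD 0.13), and the 95% interval of the log2 change, -0.17 to 0.15, lay above the measured change of every mitotic gene. Its paralogue kif5bb was at -0.04 (95% interval -0.28 to 0.19). The ciliary motor subunit gene kif3a was at -0.01 (-0.28 to 0.26), the vesicle motor gene kif1ca at 0.09 (-0.08 to 0.26) and kif13ba at -0.01 (-0.25 to 0.22).

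Over all 16 transport genes the lowest bound of a 95% interval was -0.63, that of kif5c, a gene mainly of neurons in mammals, whose log2 change was -0.30 (limma adjusted p = 0.313). That bound did not reach the mitotic median of -0.73 but went past the changes of kif14 (-0.59) and kif22 (-0.55). The level of kif5c, like those of kif17, kif1aa and kif3cb, was at or below the median of all probe sets, where an array may understate a change. The 9 transport genes not described singly had log2 changes of -0.26 to 0.17. The lowest belonged to kif13bb, singled out after its values were seen, because its probe sets differed. The set that stood for the gene was at -0.26 (SE 0.11, limma adjusted p = 0.195), and the other fell by 0.51 (SE 0.14, limma adjusted p = 0.0258). With the mean of both in their place the gene passed, so that 1 of 16 transport kinesins was called lower.

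**Figure D3:**
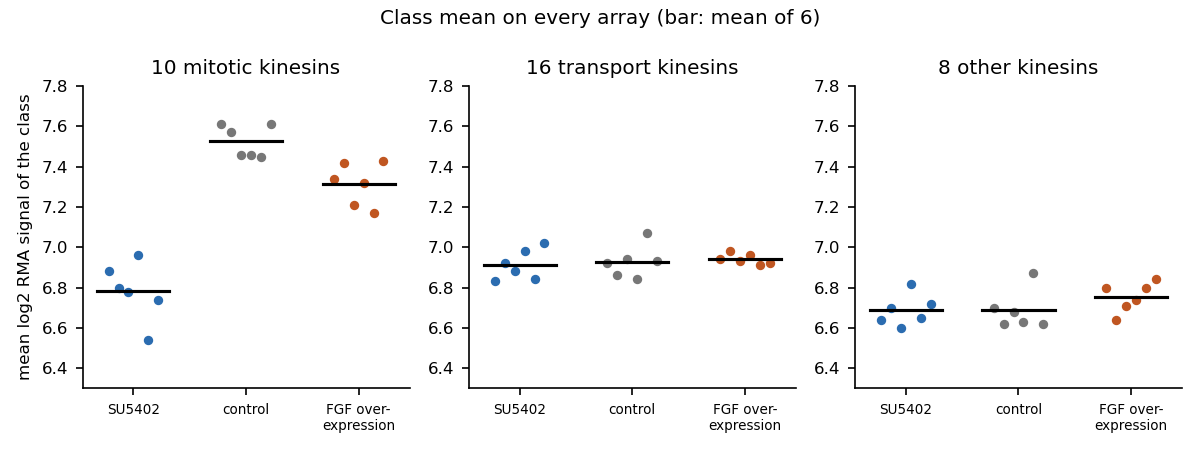
Mean log2 RMA signal of the 10 mitotic, 16 transport and 8 other kinesins (vertical axes, same scale) on each of the 18 arrays, with black bars for group means. The mitotic means are 6.54 to 6.96 under SU5402 and 7.45 to 7.61 in control, and the transport means are 6.83 to 7.02 and 6.84 to 7.07.

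Among the 8 other kinesins, kif21b was the single gene to pass under SU5402, and it was higher. Its mammalian relative is a motor of neurons and lymphocytes that limits microtubule growth. The control arrays read 6.25, 6.43 and 6.58 as lowest, median and highest, and the SU5402 arrays 6.69, 6.76 and 7.03. All SU5402 arrays were above all control arrays, as in 4.78% of all genes, and the log2 change was 0.38 (SE 0.09, limma adjusted p = 0.0113). Without the arrays numbered 6 in the 3 groups it was 0.33 and did not pass (adjusted p = 0.0511).

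The gene kif6, which zebrafish need for a straight spine and for the cilia of ependymal cells, read 7.03, 7.40 and 7.44 in control as lowest, median and highest. Under SU5402 it read 7.49, 7.61 and 7.90, above every control array, yet its log2 change of 0.30 (SE 0.09) missed the threshold (limma adjusted p = 0.0523). It passed with FGF overexpression replicate 2 or replicate 5 left out of the shared fit (adjusted p = 0.049 in both). The gene kif2a, which encodes a depolymerase of spindle poles and of growing nerve fibres, is the nearest relative of kif2c on the array. Its arrays overlapped, at 8.35, 8.45 and 8.66 in control against 8.15, 8.29 and 8.35 under SU5402, with a log2 change of -0.19 (95% interval -0.33 to -0.05, limma adjusted p = 0.0867). The 5 remaining genes of the class, among them kif7, which acts in Hedgehog signalling at the tip of the cilium, had log2 changes of -0.27 to 0.11 with adjusted p-values of 0.132 or more.

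**Figure D4:**
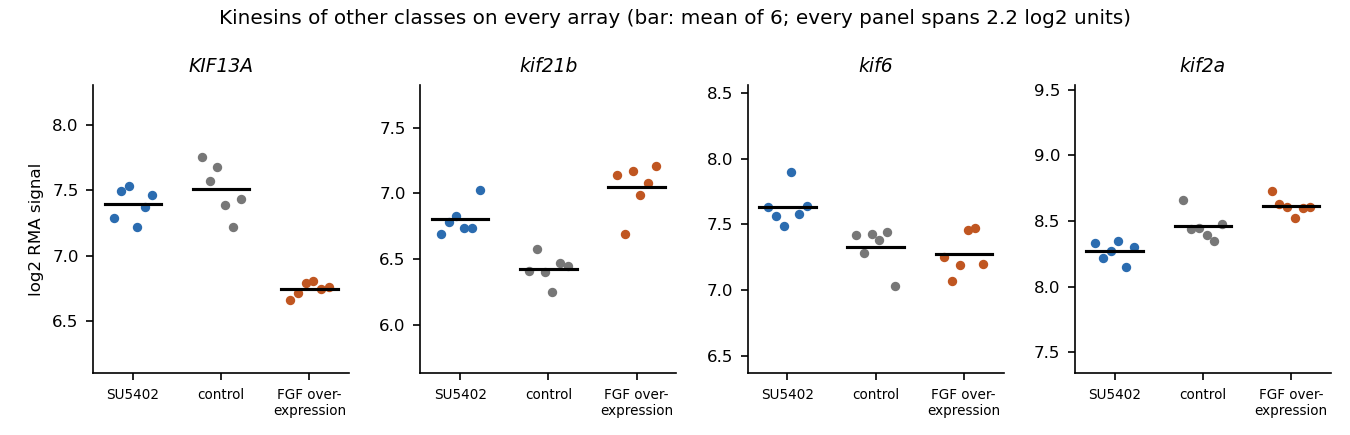
Log2 RMA signal (vertical axis) of KIF13A, kif21b, kif6 and kif2a in 6 SU5402, 6 control and 6 FGF overexpression arrays, drawn as for the mitotic genes. The FGF overexpression arrays of KIF13A (6.66 to 6.81) lie below all other arrays, and the control arrays of kif21b (6.25 to 6.58) lie below both treated groups.

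Under FGF overexpression KIF13A and kif15 fell and kif21b rose against control. These were 3 of 34 kinesins, where 2.48% of all genes were lower, 3.41% were higher and 5.89% were called in either direction, so the share called was near that of all genes. At an unadjusted p below 0.05 there were 13 of 34, beside 3721 of all 19260 genes. The largest change among the kinesins was that of KIF13A, a motor of endosomal cargo in mammals, which was 1.69-fold lower. Its arrays read 6.66, 6.76 and 6.81 as lowest, median and highest under FGF overexpression, against 7.22, 7.50 and 7.75 in control and 7.22, 7.42 and 7.53 under SU5402. The FGF overexpression arrays lay below all 12 others. Over all genes, 2.10% had all FGF overexpression arrays below control and 7.79% had them below SU5402. The log2 change of KIF13A against control was -0.76 (SE 0.09, limma adjusted p = 2.08e-05, n = 6 per group). Its relatives kif13ba (-0.05, limma adjusted p = 0.875) and kif13bb (0.23, limma adjusted p = 0.327) did not pass. KIF13A had no gene identifier in the annotation, so its name rests on the symbol alone.

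The signal of kif21b under FGF overexpression was 6.69, 7.11 and 7.21 as lowest, median and highest, above all control arrays, as in 2.92% of all genes. It rose 1.54-fold (log2 change 0.62, SE 0.09, limma adjusted p = 0.000288). The comparisons of the 2 treated groups with control share the control arrays. Set against each other, the treated groups differed by 0.24 for kif21b (SE 0.09, limma adjusted p = 0.0752). This passed without SU5402 replicate 6 (adjusted p = 0.0378) or FGF overexpression replicate 2 (adjusted p = 0.0109).

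Of the mitotic kinesins kif15 alone passed under FGF overexpression. It read 7.13, 7.26 and 7.44 as lowest, median and highest, below all control arrays, with a log2 change of -0.36 (SE 0.08, limma adjusted p = 0.0111), where 2.10% of all genes had all arrays lower. Without the arrays numbered 6 the call was lost (-0.35, adjusted p = 0.0592). The other 9 had log2 changes of -0.31 to -0.05 and overlapped with control, and the class median was -0.22 against -0.01 for all genes. The mean over the 10 mitotic genes was 7.17 to 7.43 on the FGF overexpression arrays, all below the lowest control array at 7.45. In this comparison 6 of the 10 had an unadjusted p below 0.05, as did 3721 of all 19260 genes. The lowest log2 change of the 9 was that of kif18a (-0.31, limma adjusted p = 0.0683), which passed without control replicate 4 (adjusted p = 0.0468) or FGF overexpression replicate 2 (adjusted p = 0.0456). The 95% intervals of the class reached from -0.56 to 0.18, and none reached the mitotic median of -0.73 under SU5402.

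Transport kinesins other than KIF13A did not pass under FGF overexpression. The conventional kinesin genes kif5ba (0.10) and kif5bb (0.26, limma adjusted p = 0.241) and the ciliary motor gene kif3a (0.32, limma adjusted p = 0.222) had values above 0. The gene kif5c (-0.34, limma adjusted p = 0.306) and kif1ca (-0.21, limma adjusted p = 0.191) had values below 0. The class median was 0.10, and 5 of the 16 had an unadjusted p below 0.05, as did 3721 of all 19260 genes.

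Compared directly, the mean signal of every mitotic kinesin was higher under FGF overexpression than under SU5402. All 10 were higher, by 1.33-fold for kif15 to 1.64-fold for kif2c (median log2 change 0.50, limma adjusted p from 7.98e-05 to 0.00304). The arrays overlapped for kif20a alone, with 7.07 at the lowest under FGF overexpression and 7.09 at the highest under SU5402. Over all genes 12.5% were higher and 11.9% were lower in this comparison, and the median was -0.02. Outside the mitotic class, kif2a was higher by 0.35 (SE 0.07, limma adjusted p = 0.00103), with 8.52 to 8.73 under FGF overexpression against 8.15 to 8.35 under SU5402. These ranges did not overlap, and 8.79% of all genes had all arrays higher in this comparison and 7.79% all arrays lower. KIF13A was lower by a log2 difference of -0.65 (SE 0.09, limma adjusted p = 2.73e-05), and kif6 by -0.36 (SE 0.09, limma adjusted p = 0.012). The other calls were kif1ca, lower (-0.30, limma adjusted p = 0.0139), and kif13bb, higher (0.49, limma adjusted p = 0.00475) and again named after its values were seen. Thus 12 of 34 kinesins were higher and 3 were lower in this comparison.

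Related motors and subunits lie outside the symbol rule. Of 10 measured, cenpe, kifc1 and kifc3 fell under SU5402 and none rose, where 8.13% of all genes were lower and 6.57% higher. The gene cenpe encodes the kinetochore motor that brings chromosomes to the spindle equator (-0.87, SE 0.11, limma adjusted p = 1.67e-05). The gene kifc1 encodes a minus-end motor that focuses spindle poles (-0.86, SE 0.09, limma adjusted p = 2.68e-06). Unlike these, kifc3 is known from mammals as a minus-end motor at epithelial junctions and in the cytoplasm (-0.72, SE 0.11, limma adjusted p = 0.000127). The 7 that did not pass were the light chain genes klc1b, klc2, klc3 and klc4, the kif3 partner genes kifap3a (0.22, limma adjusted p = 0.084) and kifap3b, and kifbp. Under FGF overexpression none of the 10 passed in limma against control, and cenpe was at -0.38 (limma adjusted p = 0.0564). Of the 10, 2 had an unadjusted p below 0.05, as did 3721 of all 19260 genes.

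**Figure D5:**
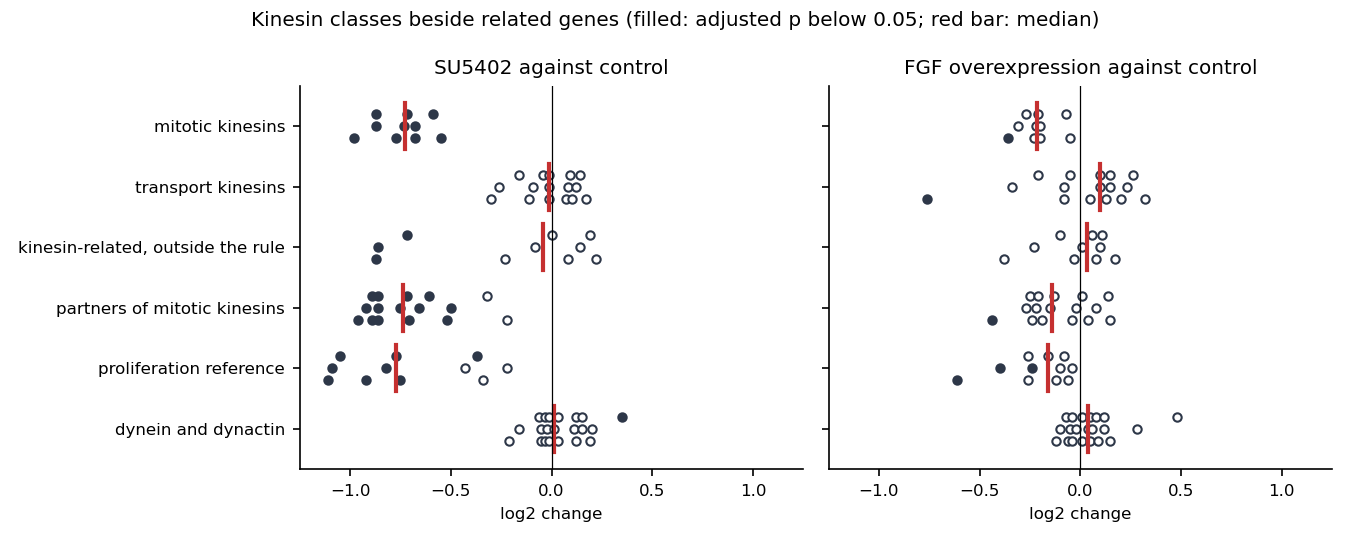
Log2 change against control (horizontal axis) of the mitotic and transport kinesins and of 4 lists of related genes, under SU5402 (left) and FGF overexpression (right); points are genes, filled where the limma test passed, and red bars are medians. Under SU5402 the medians are -0.73 for mitotic kinesins, -0.73 for their partners and -0.77 for the proliferation genes, against -0.01 for transport kinesins and 0.01 for dynein and dynactin.

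The mRNAs of proteins that work with mitotic kinesins were lower under SU5402 too. The median log2 change of 16 measured partner genes was -0.73. Of these 14 fell and none rose, where 8.13% of all genes were lower and 6.57% higher. Those that fell included the spindle checkpoint kinase gene ttk (-0.96), the kinetochore gene ndc80 (-0.86), birc5a of the chromosomal passenger complex (-0.75) and the mitotic kinase gene plk1 (-0.89). The 2 that did not pass, named after their values were seen, were birc5b (-0.22, limma adjusted p = 0.213) and sgo1 (-0.32, limma adjusted p = 0.0558). Under FGF overexpression 1 of the 16, the passenger kinase gene aurkb, fell (-0.44, SE 0.10, limma adjusted p = 0.0126), and the median was -0.14. In that comparison 2.48% of all genes were lower. Against SU5402, 14 of the 16 were higher under FGF overexpression, as were 12.5% of all genes.

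General proliferation genes had the same direction, with 8 of 11 lower under SU5402, none higher and a median of -0.77. Over all genes 8.13% were lower. Among the 8 were MKI67 (-1.09), rrm1 (-1.05), cdk1 (-0.92) and pcna (-0.75). The 3 that did not pass, named after their values were seen, were replication genes. They were mcm3 (-0.43, limma adjusted p = 0.125), mcm6 (-0.22, limma adjusted p = 0.175) and mcm7 (-0.34, limma adjusted p = 0.0625). Their relative mcm4 passed (-0.37, limma adjusted p = 0.0379). Under FGF overexpression MKI67 (-0.40, limma adjusted p = 0.00577), pcna (-0.24, limma adjusted p = 0.0481) and mcm3 (-0.61, limma adjusted p = 0.0446) fell, where 2.48% of all genes were lower. The median of the 11 was -0.16. By contrast, 20 of 21 genes of cytoplasmic dynein and dynactin, the motor that runs towards microtubule minus ends, did not pass under SU5402. The exception was pafah1b1a, which encodes the dynein regulator Lis1 (0.35, SE 0.08, limma adjusted p = 0.0044). Over all genes 14.7% were called under SU5402 in either direction. The median of the dynein and dynactin list was 0.01 under SU5402 and 0.04 under FGF overexpression, where none passed in limma and the lowest adjusted p was 0.149.

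Markers of other cell types were measured on the same arrays, and under SU5402, where 14.7% of all genes were called in either direction, some lists moved beside the mitotic kinesins. Among 17 markers of skin and periderm, 7 fell and 1 rose, and the array means of the list were 9.01 to 9.51 against 9.47 to 10.19 in control. Of 6 endothelium markers 4 fell, with array means of 5.79 to 6.18 against 6.51 to 7.04, and 4 of the 6 were then at or below the median of all probe sets. Of 7 leukocyte markers 2 fell, with array means of 5.60 to 6.12 against 6.22 to 6.47. At or below the median of all probe sets were 4 of the 7 under SU5402 and 3 in control. Of 6 erythroid markers 3 rose, with 7.84 to 8.85 against 7.27 to 8.28. At or below that median were 1 of the 6 under SU5402 and 3 in control. Of 14 neuron and glia markers 2 fell and none rose, where 8.13% of all genes fell, with 6.51 to 7.14 against 6.61 to 7.42. In that list 13 of the 14 had log2 changes below 0 (median -0.29). None of 20 skeletal muscle markers passed in limma (lowest adjusted p 0.238), with 10.38 to 11.34 against 10.58 to 11.38. All 20 had log2 changes below 0 (median -0.19), as did 9182 of all 19260 genes. For FGF overexpression against control, 2.48% of all genes were lower and 3.41% were higher. There 1 of the 17 skin and periderm markers was lower and 1 of the 14 neuron and glia markers was higher. Of the 6 endothelium markers 1 was lower and 1 was higher. No erythroid, leukocyte or muscle marker passed in limma in that comparison, though all 20 muscle markers had log2 changes below 0 (median -0.17). Between the treated groups, where 12.5% of all genes were higher under FGF overexpression and 11.9% were lower, 7 of the 17 skin and periderm markers were higher and 2 were lower. The list's array means under FGF overexpression were 9.74 to 9.98, above all SU5402 arrays. In the same comparison 5 of the 14 neuron and glia markers (array means 6.89 to 7.33 under FGF overexpression), 2 of the 7 leukocyte markers (6.21 to 6.60) and 1 of the 6 endothelium markers (6.46 to 6.98) were higher. None of the 6 erythroid markers passed in limma there, with log2 changes of -0.72 to -0.13 (lowest adjusted p 0.0634) and array means of 7.69 to 8.13 under FGF overexpression. None of the 20 muscle markers did (lowest adjusted p 0.595), with array means of 10.57 to 11.26. The part of these markers in the differences of the kinesins was not tested.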

How the data were processed

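The authors deposited a log2 signal for each probe set on each array. They used RMA in Affymetrix Power Tools, according to the submitters' processing notes. Tool version, array build and batches are not given in the sources used. The signals, between 1.20 and 13.88, were taken as they stood, without further scaling or filter. Symbols came from the platform's annotation, which is old, and of the 34 kinesins 32 had an identifier found in RefSeq's table. KIF13A and KIF9 had none and were kept as named. The number of arrays limits the precision.

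All 75212 probe sets were fitted in limma 3.58.1 (R 4.3.3) with 1 mean per group over the 18 arrays, and 3 contrasts were tested two-sided with Benjamini-Hochberg adjustment. Intervals are 95% intervals of the fit. The fit was tested on simulated data. Alternatives changed the replicate block, the arrays fitted, the array weights, the variance prior, the scaling, a filter on low values and the choice of probe set, or left out arrays.

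All mitotic kinesins were named, as was every other kinesin that passed against control, the 5 others with the highest control mean and the 3 with the largest change. Up to 4 members of each related list were named by smallest p. The members and lists were chosen with earlier results of these data known.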

Additional observations from a re-analysis of the deposited data

Results flagged for a closer look

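Within the groups of 6 arrays, 4 of the 102 sets of kinesin values and 1 of 9 sets of class means held an array far from the other 5, by a measure that chance passes in about 5% of sets. Under SU5402, kif1aa was highest on replicate 2 at 6.10, with the next array at 5.74, and kif1ca was lowest on the same replicate at 7.83, with the next at 8.06. The SU5402 arrays of kif6 had their highest value, 7.90, on replicate 4, with 7.64 the next. In control, kif5ab was lowest on replicate 3 at 6.08, with the next at 6.28. The mean of the 8 other kinesins was highest on control replicate 5 at 6.87, with the next at 6.70. None of the mitotic kinesins was among these.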

How the results depend on the processing

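The 26 alternatives left the 10 mitotic kinesins called lower under SU5402. With each array left out in turn, the kinesins called numbered 11 to 12 for SU5402 against control, 3 to 4 for FGF overexpression against control and 15 to 17 between the treated groups, and transport kinesins called under SU5402 stayed at 0. With the mean of all probe sets of a gene, 1 transport kinesin, kif13bb, was called lower, since its second probe set fell further. The labels do not say that a replicate number marks a shared batch, and the arrays were not treated as paired. Deviations of same-numbered arrays from their group means correlated at 0.0116 to 0.226 (median 0.0874), above 0.1 in 8 of 18 pairs, against a median of -0.0222 for different numbers. Of the 18 arrays 10 correlated best, among arrays of the other groups, with one of their own number, a hint from the data and not from the design. With the replicate number as a block 12, 4 and 15 kinesins were called in the 3 comparisons, with kif6 (adjusted p = 0.0328) and kif18a (adjusted p = 0.0436) added. The filter on low values kept 28 kinesins and called 13, 4 and 18, with kif2a (adjusted p = 0.0361) and kif6 (adjusted p = 0.0237) added under SU5402. Values near 0 changed sign without passing, and the cause was not tested. Against control under SU5402, array weights gave 0.00 for kif5bb and kif13ba and 0.02 for kif3a, and the fit without the arrays numbered 6 gave 0.01 for kif5ba and 0.05 for kif3a. Between the treated groups, equal array medians gave 0.00 for kif13ba and kif5c, and the fit without the arrays numbered 6 gave 0.02 and 0.07. With single arrays left out, SU5402 changes ran from -0.05 to 0.02 for kif5ba, -0.10 to 0.03 for kif5bb, -0.11 to 0.04 for kif13ba and -0.10 to 0.05 for kif3a. FGF overexpression changes ran from -0.09 to 0.00 for kif22 and -0.09 to 0.01 for kif13ba, and those between the treated groups from -0.08 to 0.05 for kif13ba and -0.12 to 0.05 for kif5c. Levels near the median of all probe sets limit what the 6 dimmest kinesins can show.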
